A study of Homo sapiens with 6 samples.

Results

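Fatty acid synthesis, storage and oxidation were examined through 44 genes of the 62700 in the deposited tables. The genes were chosen by name for their role in the pathway, with earlier results of these data known. They comprised 7 for fatty acid synthesis and its carbon supply, 10 for desaturation and elongation and 11 for activation and triglyceride synthesis. A further 7 were for droplet storage, lipolysis and uptake, and 9 for mitochondrial oxidation. RNA was sequenced in OVCAR8 cells, an established human ovarian cancer cell line whose genotype is labelled WT. In the leptin group (3 libraries), cells were kept without serum overnight and then given leptin, a hormone made mainly by fat cells, at 100 ng/ml for 24 h. In the control group (3 libraries), cells of the same line received PBS. No treatment time is listed for the control cells, and whether they were also kept without serum is not stated here. Any such difference between the groups could not be told apart from leptin. Whether the replicates were cultured separately is not labelled. The p-values below therefore reflect variation among 6 libraries that could be technical.

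Cells build fatty acids in the cytosol. Acetyl-CoA made from citrate or acetate is carboxylated to malonyl-CoA, which fatty acid synthase joins into palmitate, and desaturases and elongases then change the chain. Activated chains are stored as triglycerides in lipid droplets, released by lipases, or carried into mitochondria through the carnitine shuttle and oxidized; malonyl-CoA inhibits that shuttle, so building and burning tend to oppose each other. Many cancer cells make their own fatty acids, and ovarian cancer cells are also known to take them up from fat cells of the omentum, which store triglyceride and secrete leptin.

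The 6 libraries held 15609425 to 18577775 read pairs assigned to genes. Levels are counts scaled to the library total (CPM), with totals adjusted by the trimmed mean of M values. Leptin library 1 (replicate 1) differed from its group. On the principal component holding 49.6% of the variance, it lay at -2.15, whereas leptin libraries 2 and 3 lay at 46.3 and 39.6 and the controls lay between -31 and -23.6. Results are therefore given with and without it. The median SD of log2 CPM was 0.238 with leptin and 0.122 in controls, and edgeR's test took 1 spread per gene for both groups. The log2 fold change of a gene also followed its GC content, with a Spearman's rho of 0.39 across the 97.7% of tested genes with a known value, a description across genes that are not independent replicates. Epithelial keratin KRT8 averaged 2320 CPM with leptin and 2140 CPM in controls, and the ovarian carcinoma marker PAX8 averaged 364 CPM in both groups, while CDH1 was low (0.731 CPM with leptin and 0.247 CPM in controls) and MUC16 and MSLN were too low to test. Of the 12 epithelial and ovarian carcinoma markers, 10 were tested, and 1 fell and 1 rose. The keratin gene KRT19 fell to 38.7 ± 0.967 CPM with leptin, against 102 ± 9.63 CPM in controls (0.378 of the control level, edgeR adjusted p = 0.000139), and passed in all 6 leave-outs of 1 library. FOLR1, a folate receptor gene, averaged 68.8 ± 8.13 CPM with leptin and 44.6 ± 7.79 CPM in controls (edgeR adjusted p = 0.0234). It did not pass without leptin library 3 (0.0588) or without control libraries 1, 2 and 3 (0.141, 0.0979 and 0.0597). KRT7 averaged 547 ± 238 CPM with leptin and 332 ± 44.3 CPM in controls without passing (log2 fold change 0.72 ± 0.30, edgeR adjusted p = 0.166). Its leptin library 1, at 283 CPM, lay among the controls (281 to 359 CPM). The 12 markers summed to 3600 to 4010 CPM with leptin and 3220 to 3510 CPM in controls.

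Of 9 adipocyte markers, LEP and RETN were at 0 counts in all libraries and ADIPOQ was at 0 in all 3 leptin libraries. Their summed level was 63.5 to 91.8 CPM with leptin and 53.4 to 55.1 CPM in controls, carried by CFD and PPARG. CFD passed as higher, at 43.4 ± 14.9 CPM with leptin and 23.5 ± 3.51 CPM in controls (1.85-fold, edgeR adjusted p = 0.0388), with leptin library 1 at 26.9 CPM near the highest control. Of the leave-outs it passed only without leptin library 1 (1.18e-05; 0.109 to 0.168 in the others), and with the GC trend removed it stood at 0.44 on the log2 scale (edgeR adjusted p = 0.155). PPARG averaged 34.3 ± 0.701 CPM with leptin and 29.7 ± 3.82 CPM in controls without passing (1.15-fold, edgeR adjusted p = 0.301). Summed fibroblast and endothelial markers (10 genes) lay between 359 and 523 CPM with leptin and between 463 and 660 CPM in controls. COL1A1 carried that sum (421 CPM with leptin and 562 CPM in controls). Of the 6 tested, 5 had a negative log2 fold change and 1 a positive one (median -0.57), and none passed. The 10 immune markers, 3 of them at 0, summed to 2.91 to 5.36 CPM with leptin and 2.06 to 2.8 CPM in controls, carried by CSF1R (3.64 CPM with leptin and 2.11 CPM in controls). The part of these markers and sums in the results was not tested.

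With leptin, most of the fatty acid genes stayed near their control levels, and 6 passed edgeR's quasi-likelihood test at an adjusted p under 0.05. The desaturase-family gene FADS3 and the droplet coat gene PLIN2 were each about 2-fold higher, at 2.04-fold and 2.21-fold. The triglyceride lipase gene PNPLA2 (1.33-fold) and the oxidation enzyme gene ECI1 (1.56-fold) were also higher. The fatty acid carrier gene FABP5 and the elongase gene ELOVL5 were lower, at 0.617 and 0.737 of the control level. None of the 7 genes listed for synthesis and carbon supply or the 11 for activation and triglyceride synthesis passed. Of all tested genes 9.81% passed, so nothing is read from the absence of calls in lists this short.

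Of the 44 genes, 43 were expressed enough to be tested; CD36, a fatty acid receptor, was not. The 4 genes that rose were 9.30% of those tested, against 5.71% of all 15685 tested genes, and the 2 that fell were 4.65%, against 4.09% of all tested genes. These shares stood near the background, and nothing is read from them about the pathway as a whole. Log2 fold changes were positive for 22 genes and negative for 21, with a median of 0, and the median over all tested genes was 0.01. They were under 0.3 in size for 30 of the 43 genes and at least 1 for 2. The median standard error was 0.14. Without adjustment, 13 genes had a p under 0.05, or 30.2% of those tested, against 27.6% of all tested genes. All 3 leptin libraries lay above all 3 controls for 11 genes (25.6%, against 16.0% of all tested genes) and below them for 5 (11.6%, against 16.2%), while the groups overlapped for 27. In bulk RNA, fewer cells of a kind and less RNA per cell cannot be told apart.

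**Figure D1:**
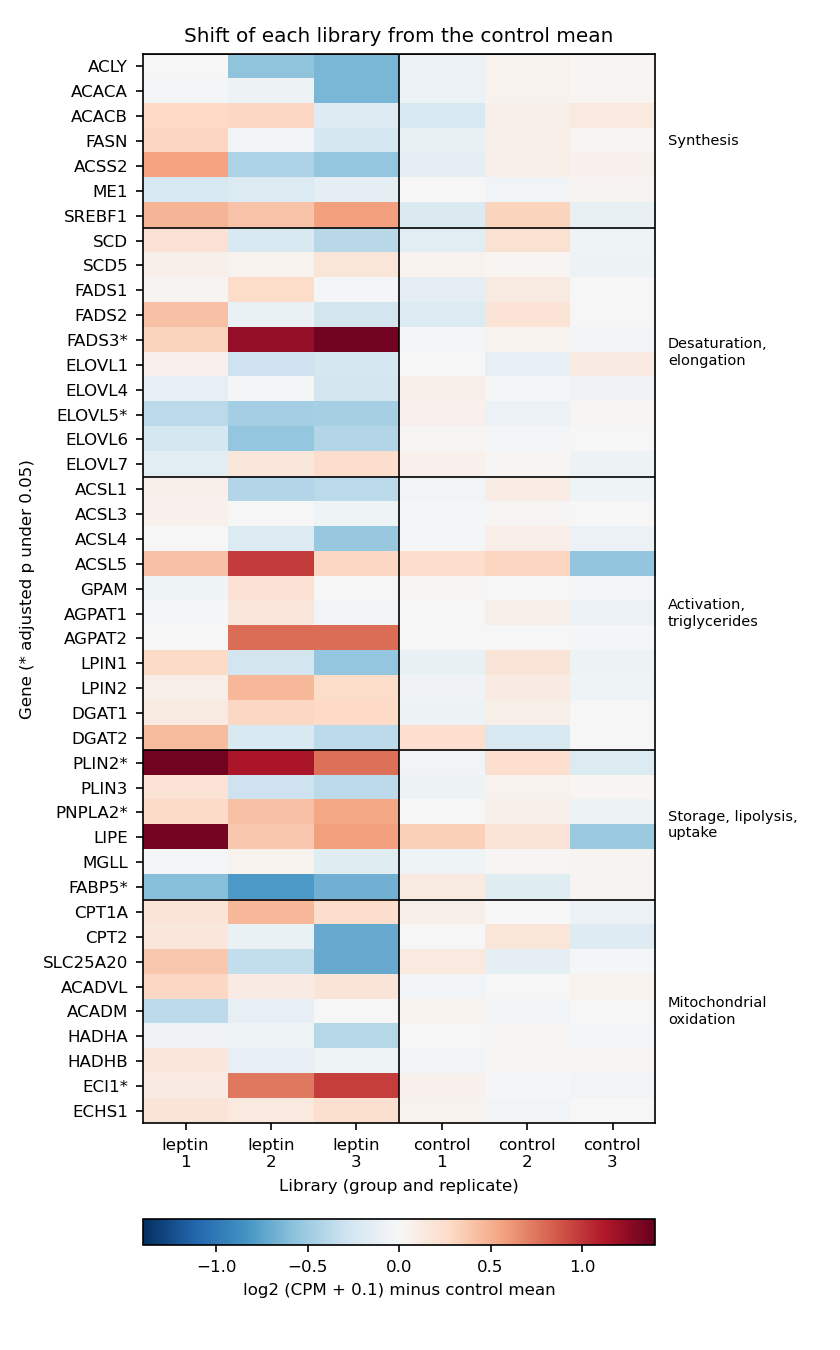
Shift of each library from the mean of the 3 controls on the log2 (CPM + 0.1) scale (colour), for the 43 tested genes (down the page, by step) in 3 leptin and 3 control libraries (across). FADS3, AGPAT2 and ECI1 are shifted further in leptin libraries 2 and 3 than in leptin library 1, PLIN2 is higher in all 3, and FABP5 and ELOVL5 are lower in all 3.

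The 7 genes of synthesis and carbon supply gave no call in edgeR's test, with 2 at an unadjusted p under 0.05, none called by limma-voom and 1, SREBF1, called by DESeq2. Their log2 fold changes ran from -0.38 to 0.47 with a median of -0.05. Among all tested genes edgeR called 9.81%. ACACA, whose product makes the malonyl-CoA for chain building, had 211, 203 and 137 CPM in leptin libraries 1, 2 and 3, against 201, 221 and 217 CPM in control libraries 1, 2 and 3. Leptin library 3 was the low value, and the other leptin libraries lay among the controls. This gave a log2 fold change of -0.21 ± 0.15 (SE; edgeR adjusted p = 0.403).

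FASN, the fatty acid synthase gene, had 1700, 1340 and 1170 CPM in the leptin libraries, against 1280, 1460 and 1400 CPM in controls. Leptin library 1 was above every control and leptin library 3 below every control, so that the log2 fold change of 0.02 ± 0.15 (edgeR adjusted p = 0.942) averaged opposite shifts. ACLY, which supplies cytosolic acetyl-CoA from citrate, and ACSS2, which makes it from acetate, were set out per library after their values were seen. ACLY had 603, 413 and 389 CPM with leptin, against 574, 630 and 620 CPM in controls. Leptin libraries 2 and 3 were below every control, and library 1 lay among them (log2 fold change -0.38 ± 0.16, edgeR adjusted p = 0.158). ACSS2 had 213 CPM in leptin library 1, above every control, and 106 and 99.1 CPM in leptin libraries 2 and 3, below every control (131, 152 and 150 CPM). On average the log2 fold change was -0.05 ± 0.26 (edgeR adjusted p = 0.924).

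SREBF1 encodes SREBP-1, a transcription factor that drives many lipogenic enzyme genes. It had 111, 105 and 118 CPM in the leptin libraries, against 68.9, 98.5 and 74.1 CPM in controls. Every leptin library was above every control, though control library 2 came close. A log2 fold change of 0.47 ± 0.14 did not pass (edgeR adjusted p = 0.0551). It passed without leptin library 1 (0.46, edgeR adjusted p = 0.013) and without control library 2 (0.64, edgeR adjusted p = 0.0437), and in DESeq2 (adjusted p = 0.0232). With the GC trend removed it was 0.15 (edgeR adjusted p = 0.504). Of its exons, 6.75% of bases overlap RAI1 on the other strand, and read pairs there were not counted. The malic enzyme gene ME1, a source of NADPH, was below every control in all leptin libraries at 74.6 ± 2.35 CPM, against 84.6 ± 2.39 CPM in controls (mean ± SD, n = 3 each; edgeR adjusted p = 0.259). The mitochondrial-surface carboxylase gene ACACB overlapped between groups (14.4 ± 2.55 CPM with leptin and 13.1 ± 1.76 CPM in controls).

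Among the 10 genes of desaturation and elongation, FADS3 rose, ELOVL5 fell and 8 did not pass. FADS3 belongs to the front-end desaturase family and is known to act on sphingoid bases. It had 428, 813 and 879 CPM in leptin libraries 1, 2 and 3, against 342, 358 and 337 CPM in control libraries 1, 2 and 3. All leptin libraries were above all controls, with library 1 much nearer to them than libraries 2 and 3. FADS3 changed by 1.03 ± 0.22 on the log2 scale (edgeR adjusted p = 0.0195), and by 0.84 to 1.28 over the 6 leave-outs of 1 library. The call was kept without leptin library 1 (edgeR adjusted p = 1.71e-07) and lost without leptin libraries 2 and 3 (0.0905 and 0.088) and without control libraries 1, 2 and 3 (0.108, 0.0806 and 0.103). FADS3 lies at chr11:61873519-61892051 on the minus strand, beside its paralogs FADS1 (chr11:61799627-61829318) and FADS2 (chr11:61792980-61867354), and its exons overlap no other annotated gene.

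Neither neighbour passed. FADS2, which takes the entry step of polyunsaturated fatty acid synthesis, had 379, 267 and 239 CPM with leptin, against 250, 325 and 286 CPM in controls. As for FASN, leptin library 1 was above every control and leptin library 3 below every control (log2 fold change 0.04 ± 0.17, edgeR adjusted p = 0.9). FADS1, the desaturase that follows it, averaged 309 ± 31.1 CPM with leptin and 290 ± 26.2 CPM in controls, with the groups overlapping. Corrected for length, FADS3 made up 51.2 to 73.4% of the summed transcripts of the 3 FADS genes with leptin and 48 to 52.4% in controls. The lengths are those of all annotated exons (6294 bases for FADS3, 10228 for FADS1 and 10553 for FADS2), and such shares depend on them. Uncorrected, FADS3, FADS1 and FADS2 averaged 707, 309 and 295 CPM with leptin and 346, 290 and 287 CPM in controls.

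ELOVL5, an elongase of polyunsaturated chains, had 111, 103 and 104 CPM in the leptin libraries, against 150, 135 and 146 CPM in controls. All leptin libraries were below all controls, and library 1 moved with the other leptin libraries. For ELOVL5 the log2 fold change was -0.44 ± 0.10 (edgeR adjusted p = 0.0236). The call was kept without leptin library 1 or 2 (edgeR adjusted p = 0.00104 and 0.0464). It was lost without leptin library 3 (0.08), without control libraries 1, 2 and 3 (0.149, 0.0807 and 0.134), and with the GC trend removed (-0.32, adjusted p = 0.0727). ELOVL6, which lengthens palmitate, lay below every control as well, at 14.2 ± 1.43 CPM with leptin against 18.7 ± 0.259 CPM in controls, but did not pass (log2 fold change -0.39 ± 0.13, edgeR adjusted p = 0.0831).

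SCD, the main desaturase of saturated chains, had 640, 480 and 426 CPM with leptin, against 498, 649 and 536 CPM in controls. Leptin library 1 lay just under the highest control and leptin libraries 2 and 3 lay below the lowest. Its mean difference was small (log2 fold change -0.12 ± 0.16, edgeR adjusted p = 0.67). Its paralog SCD5 made up 5.16 to 8.06% of the length-corrected transcripts of the pair with leptin and 4.94 to 6.43% in controls. ELOVL1, ELOVL4 and ELOVL7, which act on longer chains, overlapped between groups, with log2 fold changes from -0.15 to 0.10. ELOVL1 led the elongases at 63 to 68.1% of their length-corrected sum with leptin and 61.3 to 63.9% in controls.

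The 11 genes of activation and triglyceride synthesis gave no call in edgeR, with 3 at an unadjusted p under 0.05, none called by limma-voom and 1, AGPAT2, called by DESeq2. Their median log2 fold change was 0.04. Among all tested genes edgeR called 9.81%. GPAM, which encodes the mitochondrial enzyme of the opening step of glycerolipid synthesis, had 19, 22.9 and 19.9 CPM with leptin, against 20.1, 19.9 and 19.4 CPM in controls. Its groups overlapped (log2 fold change 0.05 ± 0.13, edgeR adjusted p = 0.822). AGPAT2 takes the next step, and its per-library values were set out after they were seen. It had 141 CPM in leptin library 1, inside the narrow control range of 140 to 142 CPM, and 242 CPM in each of leptin libraries 2 and 3. AGPAT2's log2 fold change of 0.56 ± 0.18 did not pass (edgeR adjusted p = 0.0707). It passed without leptin library 1 (0.77, edgeR adjusted p = 9.5e-06), and with the GC trend removed it was 0.10 (edgeR adjusted p = 0.68). Its longest transcript holds 65.9% GC.

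DGAT1 and DGAT2 encode unrelated enzymes for the last step, in which triglyceride is formed. DGAT1 had 73.3, 81.9 and 81.5 CPM with leptin, against 63.7, 70.9 and 66.9 CPM in controls. The groups did not overlap, but the log2 fold change of 0.23 ± 0.10 did not pass (edgeR adjusted p = 0.176), and with the GC trend removed it was -0.10. DGAT2 had 1.84, 1.14 and 1.01 CPM with leptin, against 1.58, 1.12 and 1.32 CPM in controls, from 17 to 32 counts a library. The groups overlapped, and the standard error was wide (log2 fold change -0.01 ± 0.38, edgeR adjusted p = 0.992). Corrected for length, DGAT1 made up 99.1 ± 0.358% of the pair with leptin and 99 ± 0.233% in controls (SD, n = 3 each). Of the other 7 genes of this step, the acyl-CoA synthetases ACSL1, ACSL3, ACSL4 and ACSL5, AGPAT1, and the phosphatidate phosphatases LPIN1 and LPIN2, all overlapped between groups, with log2 fold changes from -0.22 to 0.56. For AGPAT1, 30.5% of exon bases overlap other genes, mostly on the other strand, so its counts miss part of its reads.

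Of 6 tested genes of droplet storage, lipolysis and uptake, PLIN2 and PNPLA2 rose and FABP5 fell. Among all tested genes 5.71% rose and 4.09% fell, and whether calls gathered in this step was not tested. PLIN2, which coats lipid droplets, had 4.04, 3.47 and 2.67 CPM in leptin libraries 1, 2 and 3, against 1.48, 1.8 and 1.32 CPM in control libraries 1, 2 and 3. Every leptin library was above every control, and leptin library 1 was the highest. PLIN2 changed by 1.15 ± 0.29 on the log2 scale (edgeR adjusted p = 0.0356). These levels rest on few read pairs, 70, 52 and 45 counts with leptin against 28, 29 and 22 in controls. The call was kept without leptin library 1 (0.99, edgeR adjusted p = 0.0317) and with the GC trend removed (1.18, edgeR adjusted p = 0.0406). It was lost without leptin libraries 2 and 3 (edgeR adjusted p = 0.079 and 0.0676) and without control libraries 1, 2 and 3 (0.153, 0.09 and 0.157). The droplet coat in these cells was mostly PLIN3 by transcript: PLIN2 made up 0.663 to 0.815% of the length-corrected pair with leptin and 0.249 to 0.336% in controls. PLIN3 averaged 258 ± 57.2 CPM with leptin and 283 ± 12.3 CPM in controls, with the groups overlapping.

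PNPLA2, the adipose triglyceride lipase that starts triglyceride breakdown, had 167, 184 and 202 CPM in the leptin libraries, against 138, 146 and 132 CPM in controls. The groups did not overlap, and the log2 fold change was 0.41 ± 0.11 (edgeR adjusted p = 0.0413). The call was kept without leptin library 1 (edgeR adjusted p = 0.00131), and lost without leptin libraries 2 and 3 (0.0644 and 0.132) and without control libraries 1, 2 and 3 (0.188, 0.121 and 0.209). With libraries scaled by their totals alone it was 0.36 (edgeR adjusted p = 0.0545). The longest PNPLA2 transcript holds 64.5% GC, and with the GC trend removed the log2 fold change was 0.02 (edgeR adjusted p = 0.906). An unnamed gene on the other strand overlaps 10.5% of its exon bases.

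LIPE, the hormone-sensitive lipase gene that acts next, was low, with 1.79, 0.869 and 1.01 CPM with leptin, against 0.844, 0.745 and 0.42 CPM in controls. Leptin library 1 was the high value, and the groups did not overlap by a small margin (log2 fold change 0.86 ± 0.47, edgeR adjusted p = 0.258). MGLL, which completes lipolysis, averaged 364 ± 27.5 CPM with leptin and 375 ± 13.2 CPM in controls, with the groups overlapping.

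FABP5, an intracellular fatty acid carrier, had 26.6, 23 and 25.3 CPM with leptin, against 44.1, 35.9 and 41.4 CPM in controls. All leptin libraries were below all controls, and library 1 again moved with the others. FABP5 changed by -0.70 ± 0.12 on the log2 scale (edgeR adjusted p = 0.00926), the lowest adjusted p among the 43 genes. The call was kept in 4 of 6 leave-outs and with the GC trend removed (-0.65, edgeR adjusted p = 0.0141). It was lost without control libraries 1 and 3 (edgeR adjusted p = 0.0801 and 0.0685). The annotation names 16 copies of FABP5, which together took 50 to 107 counts a library. Read pairs that map to several places were not counted, so the level of FABP5 is uncertain. CD36 had 3, 0 and 0 counts in the leptin libraries, against 0, 0 and 2 counts in controls. A count of 0 allows up to 3 counts, or 0.158 to 0.2 CPM by library, for counting error only, so no difference in CD36 was detectable at this depth.

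**Figure D2:**
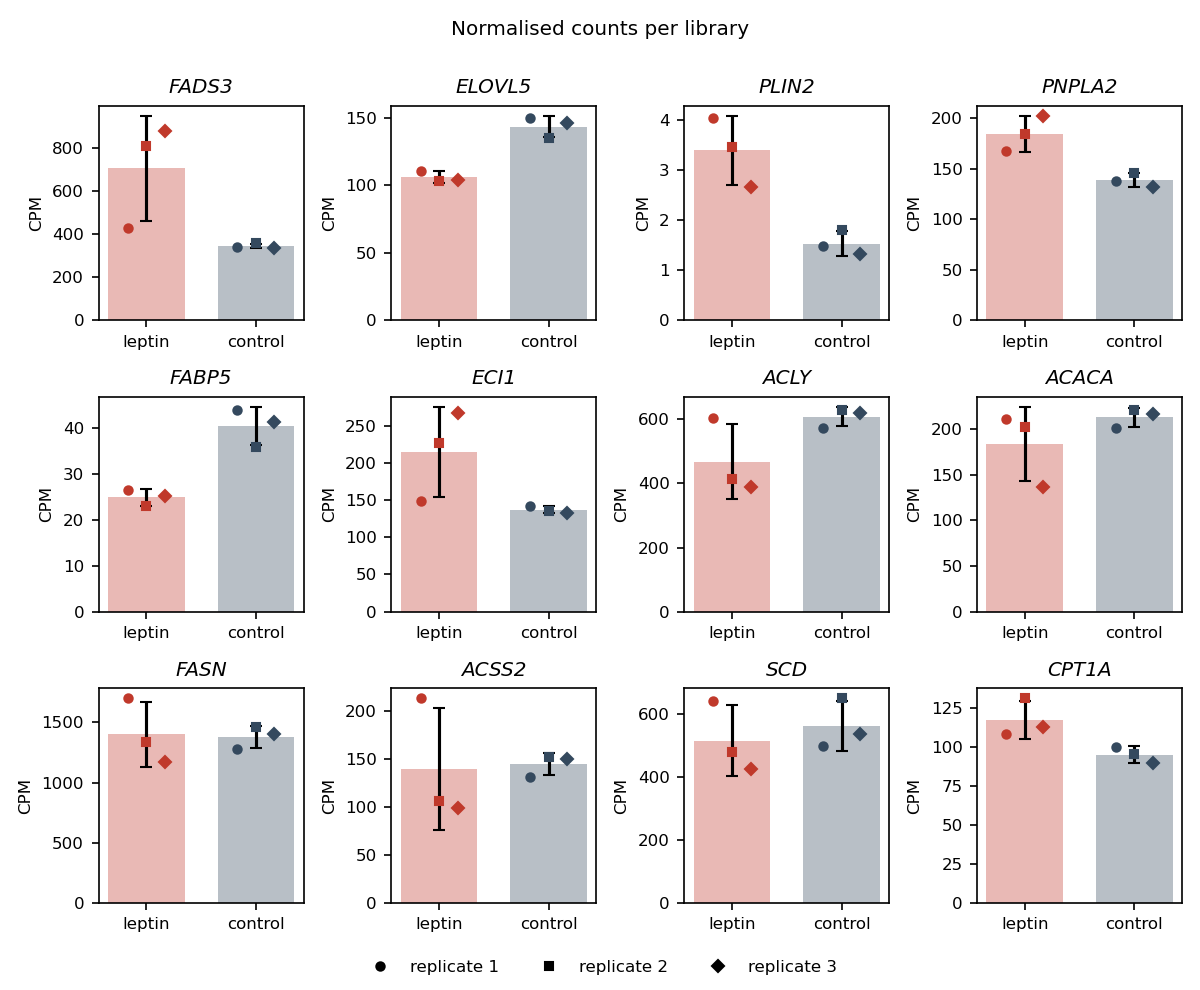
Normalised counts (CPM, linear axes from 0) of 12 genes in the leptin libraries (left of each panel) and the control libraries (right). Points are single libraries, with the marker shape giving the replicate, and bars show the mean ± SD (n = 3 each). FADS3 and ECI1 have 2 high leptin libraries and 1 near the controls, ELOVL5, PLIN2, PNPLA2 and FABP5 separate in all libraries, and in FASN and ACSS2 leptin libraries lie on both sides of the controls.

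Of the 9 genes of mitochondrial oxidation, ECI1 rose and 8 did not pass. ECI1 encodes an isomerase that lets unsaturated fatty acids pass through the oxidation cycle. It had 148, 227 and 267 CPM in the leptin libraries, against 142, 135 and 133 CPM in controls. The groups did not overlap, but leptin library 1 lay only just above the highest control. ECI1 changed by 0.65 ± 0.18 on the log2 scale (edgeR adjusted p = 0.0443). Without leptin library 1 it was 0.84 (edgeR adjusted p = 1.05e-05). The call was lost without leptin libraries 2 and 3 (edgeR adjusted p = 0.138 and 0.169), without control libraries 1, 2 and 3 (0.164, 0.148 and 0.186), in limma-voom (adjusted p = 0.0616) and with scaling by library totals alone (edgeR adjusted p = 0.0519). The longest ECI1 transcript holds 61.4% GC, and with the GC trend removed the log2 fold change was 0.36 (edgeR adjusted p = 0.183).

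CPT1A encodes the rate-limiting, malonyl-CoA-sensitive enzyme of the carnitine shuttle. It had 108, 131 and 113 CPM with leptin, against 100, 95.3 and 89.5 CPM in controls. Every leptin library was above every control, but the log2 fold change of 0.30 ± 0.11 did not pass (edgeR adjusted p = 0.11). Without leptin library 1 it was 0.35 (edgeR adjusted p = 0.0143), and with the GC trend removed it was 0.31 (edgeR adjusted p = 0.123). The other shuttle genes, CPT2 and the carrier gene SLC25A20, overlapped between groups, with the lowest values in leptin library 3. The dehydrogenase gene ACADVL and the hydratase gene ECHS1 were above every control without passing (ACADVL 322 ± 19.5 CPM with leptin against 281 ± 9.1 CPM in controls, ECHS1 216 ± 6.25 CPM with leptin against 191 ± 5.93 CPM in controls). HADHA, of the trifunctional protein, was below every control without passing (144 ± 18.8 CPM with leptin against 160 ± 2.07 CPM in controls), and its partner HADHB and the dehydrogenase gene ACADM overlapped. Summed over the 9 genes, the level was 1110 to 1160 CPM with leptin and 990 to 1000 CPM in controls. ACADVL and ECHS1 led the sum in both groups, followed by ECI1 with leptin (214 CPM) and by HADHA in controls (160 CPM, ECI1 137 CPM). With the GC trend removed, log2 fold changes were 0.36 for ECI1, 0.02 for ACADVL and -0.05 for ECHS1. Sums of the other steps, leptin against controls, were 2000 to 2930 against 2350 to 2660 CPM for synthesis and carbon supply. They were 2160 to 2270 against 1810 to 2070 CPM for desaturation and elongation. Activation and triglyceride synthesis gave 793 to 864 against 738 to 793 CPM, and storage, lipolysis and uptake 783 to 894 against 814 to 855 CPM. How often such sums separate was not tested.

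The promoters of 4 called genes are shown because the genes moved in different directions and can be searched for the same motifs. The RefSeq (GRCh38.p14) promoter set used here had an entry for 39 of the 44 genes, 250 bases before and 50 after the start. FABP5, the gene with the lowest adjusted p, had no entry in this set and is therefore not shown. The sequences of FADS3, ELOVL5, PLIN2 and PNPLA2, taken in order of adjusted p among called genes with a usable entry, read 5′ to 3′ along the gene, with capitals for every motif match on either strand. FADS3 is at chr11:61891496-61891795 (minus strand), ELOVL5 at chr6:53348901-53349200 (minus), PLIN2 at chr9:19127443-19127742 (minus) and PNPLA2 at chr11:818664-818963 (plus).
FADS3: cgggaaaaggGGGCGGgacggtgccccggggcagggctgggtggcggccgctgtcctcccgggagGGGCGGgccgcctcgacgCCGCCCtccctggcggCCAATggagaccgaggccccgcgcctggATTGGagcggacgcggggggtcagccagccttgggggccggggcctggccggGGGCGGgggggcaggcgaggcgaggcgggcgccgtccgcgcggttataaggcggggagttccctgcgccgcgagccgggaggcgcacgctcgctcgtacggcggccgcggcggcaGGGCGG
ELOVL5: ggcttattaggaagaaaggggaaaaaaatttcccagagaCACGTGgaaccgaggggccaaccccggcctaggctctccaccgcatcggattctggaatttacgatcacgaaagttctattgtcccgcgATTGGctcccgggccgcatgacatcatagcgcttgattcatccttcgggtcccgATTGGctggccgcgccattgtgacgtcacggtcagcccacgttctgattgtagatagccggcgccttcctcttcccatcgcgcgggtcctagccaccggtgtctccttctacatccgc
PLIN2: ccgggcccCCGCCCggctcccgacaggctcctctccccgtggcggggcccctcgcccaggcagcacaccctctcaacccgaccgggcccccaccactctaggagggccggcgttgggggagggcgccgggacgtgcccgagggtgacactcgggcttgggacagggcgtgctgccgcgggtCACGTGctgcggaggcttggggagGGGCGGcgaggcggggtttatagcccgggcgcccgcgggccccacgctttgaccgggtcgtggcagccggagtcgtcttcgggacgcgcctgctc
PNPLA2: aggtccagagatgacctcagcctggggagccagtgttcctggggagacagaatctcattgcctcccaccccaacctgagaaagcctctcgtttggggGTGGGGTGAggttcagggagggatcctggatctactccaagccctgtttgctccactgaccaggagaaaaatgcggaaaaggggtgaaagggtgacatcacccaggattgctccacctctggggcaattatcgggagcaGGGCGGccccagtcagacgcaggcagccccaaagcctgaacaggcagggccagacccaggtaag

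The motifs searched were the E-box CACGTG, the CCAAT box (CCAAT), the GC box GGGCGG, the sterol regulatory element form TCACNCCAC and the ATF4 and C/EBP element form TGATGNAAT, on both strands. The promoter of FADS3 held 5 GC boxes and 2 CCAAT boxes, and that of ELOVL5 held 1 E-box and 2 CCAAT boxes. The PLIN2 promoter held 1 E-box, 69 bases before the start, and 2 GC boxes. The PNPLA2 promoter held 1 GC box and, on the other strand, the only sterol element match among the 39 promoters. Among all 35116 promoters of the table, 7.26% held the E-box, 34.6% the CCAAT box, 45% the GC box, 1.13% the sterol element and 0.991% the ATF4 and C/EBP form. Of the 39 promoters, 3 held the E-box, 13 the CCAAT box, 30 the GC box and 0 the ATF4 and C/EBP form. A match describes letters and is not a binding site, and no match says only that these letters are not in this window.

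The number of calls moved most when leptin library 1 was left out. Without it, 21 of the 43 genes passed in edgeR, all 6 of the earlier calls and 15 others. There were 9 higher (20.9%, against 16.0% of all tested genes) and 12 lower (27.9%, against 13.5%). In synthesis, ACLY fell by 0.61 on the log2 scale (edgeR adjusted p = 0.000202) and ACSS2 by 0.5 (0.00117), while SREBF1 rose. Among desaturases and elongases, SCD fell by 0.32 (edgeR adjusted p = 0.048), and ELOVL1 and ELOVL6 fell as well. In triglyceride synthesis, AGPAT2, LPIN2 and DGAT1 rose, and ACSL1, ACSL4 and LPIN1 fell. PLIN3 and the carnitine carrier gene SLC25A20 fell, and CPT1A rose. FASN stayed uncalled at -0.15 (edgeR adjusted p = 0.315), as did ACACA at -0.34 (0.0666).

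In 17 of the 43 genes (39.5%), leptin library 1 lay on the other side of the control mean from both other leptin libraries. This held for 23.3% of all tested genes. Library 1 was the higher one in 14 of the 17, and in 1804 of the 3659 such genes among all tested. Relative to the controls, the 43 genes had a median log2 shift of 0.12 in leptin library 1, -0.02 in library 2 and -0.13 in library 3. Over all tested genes the median shift was 0, 0.01 and 0. For the synthesis genes it was 0.27, -0.07 and -0.24. Leaving out any of the other 5 libraries gave between 0 and 2 calls. Those fits called 0.711 to 4.84% of all tested genes, against 9.81% with all 6 libraries. There were 0 calls in edgeR without control library 1 or control library 3, where 10 and 9 genes had an unadjusted p under 0.05. In these 2 fits 0.711% and 1.05% of all tested genes passed.

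With each library's GC trend removed, 3 of the 43 genes passed in edgeR. FADS3 and PLIN2 were higher (4.65%, against 2.72% of all tested genes) and FABP5 was lower (2.33%, against 2.82%). FADS3 stood at 0.93 (edgeR adjusted p = 0.0383). FASN, whose longest transcript holds 65.3% GC, changed sign to -0.36 without passing (edgeR adjusted p = 0.306). It passed as lower when leptin library 1 was also left out (-0.67, edgeR adjusted p = 0.000672).

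**Figure D3:**
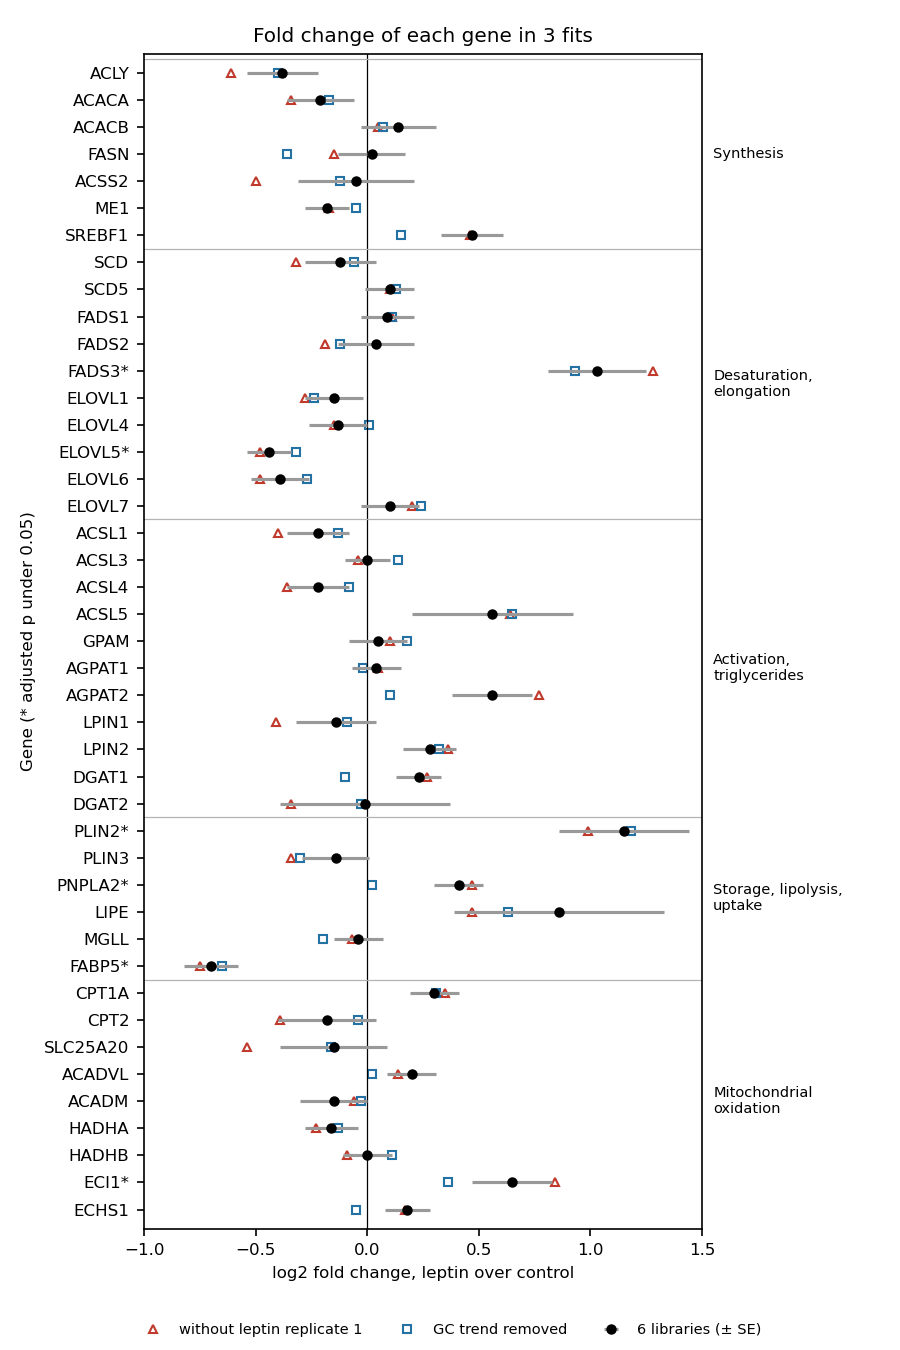
Log2 fold change, leptin over control, of the 43 tested genes from all 6 libraries (black circles, bars ± SE), without leptin replicate 1 (red triangles) and with each library's GC trend removed (blue squares). The called genes stay on their side in all 3, as do many of the others. PNPLA2 is at 0.41 in the first and 0.02 with the GC trend removed, and ACLY and ACSS2 are further below 0 without leptin replicate 1.

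Compared per length, as length-corrected shares of all transcripts (TPM), levels in the pathway spanned a wide range. The lengths are those of all annotated exons of a gene, and the order of genes depends on them. The highest levels were those of ECHS1 (671 ± 8.87 TPM with leptin and 612 ± 18.4 TPM in controls) and FASN (599 ± 130 TPM with leptin and 606 ± 40.8 TPM in controls), and these 2 did not differ from each other beyond their spread in either group. FADS3 averaged 443 ± 146 TPM with leptin and 225 ± 6.12 TPM in controls, and AGPAT2 averaged 450 ± 122 TPM with leptin and 315 ± 1.05 TPM in controls. At least 100 TPM was reached by 17 genes with leptin and 18 in controls, and at least 1 TPM by 41 genes in both. PLIN2 stood at 2.7 ± 0.616 TPM with leptin and 1.25 ± 0.193 TPM in controls. The lowest were DGAT2 (0.67 ± 0.24 TPM with leptin and 0.694 ± 0.119 TPM in controls), LIPE (0.942 ± 0.396 TPM with leptin and 0.53 ± 0.172 TPM in controls) and CD36.

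**Figure D4:**
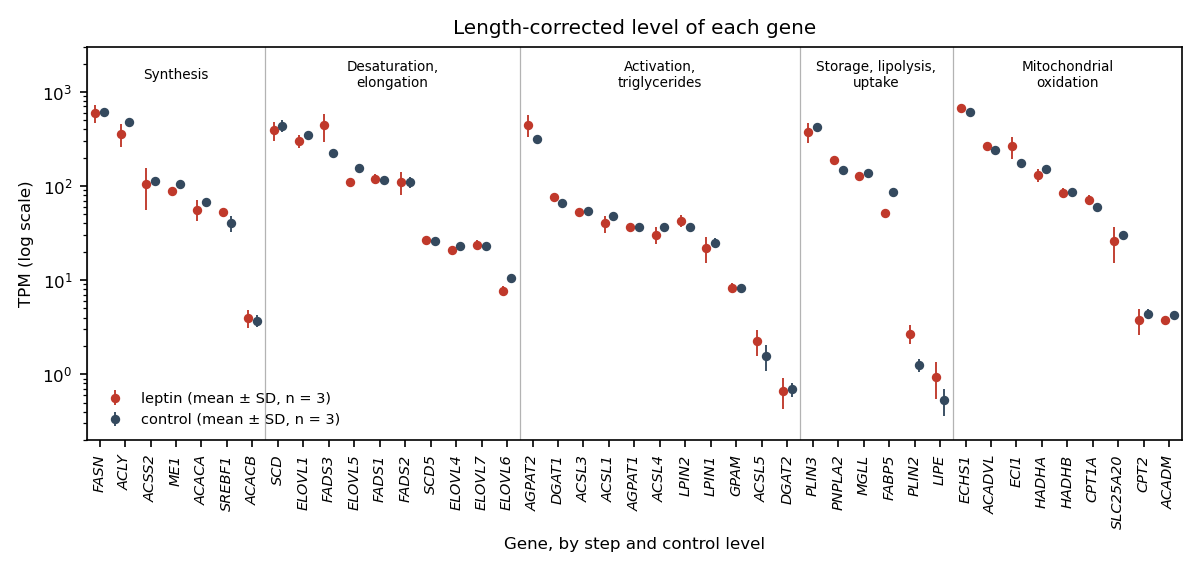
Length-corrected level (TPM, log axis) of 43 genes, ordered by step and by control level; red points left of each pair are leptin and dark points control libraries (mean ± SD, n = 3 each). ECHS1 and FASN are highest, DGAT2 and LIPE lowest, and PLIN2 and FADS3 are higher with leptin while FABP5 is lower. CD36, not tested, is left out.

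Genes around the pathway were taken from 5 further lists. Of 19 tested genes listed as regulators of lipid metabolism, 3 rose and none fell, against 5.71% higher and 4.09% lower among all tested genes. With the GC trend removed none of the 19 passed in edgeR, and 5 had an unadjusted p under 0.05. The median log2 fold change was 0.24 over the 19 and 0.01 over all tested genes, and 0.15 over the 19 with the GC trend removed. SCAP, which escorts SREBP proteins to be activated, averaged 229 ± 64.9 CPM with leptin and 135 ± 6.57 CPM in controls (edgeR adjusted p = 0.0256). The nuclear receptor genes ESRRA (99 ± 23.7 CPM with leptin against 65 ± 5.58 CPM in controls, edgeR adjusted p = 0.0413) and NR1H2 (189 ± 17.7 CPM with leptin against 143 ± 7.23 CPM in controls, edgeR adjusted p = 0.0445) rose as well. Of 12 genes of AMP-activated kinase and malonyl-CoA control, none passed in edgeR or limma-voom, with 3 at an unadjusted p under 0.05 and 2 called as higher by DESeq2. The kinase gene STK11 came nearest at 340 ± 97.7 CPM with leptin and 219 ± 14.6 CPM in controls (edgeR adjusted p = 0.0539). Its leptin library 1, at 229 CPM, lay among the controls (204 to 233 CPM).

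The remaining 3 lists gave 2 higher calls and 1 lower. Of 11 tested uptake genes, the transporter gene SLC27A1 rose (54.1 ± 4.44 CPM with leptin and 34.3 ± 3.74 CPM in controls, edgeR adjusted p = 0.0102). Of 21 other elongation and acyl-CoA genes, the acyl-CoA synthetase gene ACSF2 rose (35.6 ± 1.51 CPM with leptin against 26 ± 1.91 CPM in controls, edgeR adjusted p = 0.0319). Of 15 other triglyceride and droplet genes, GPAT3, a glycerol-3-phosphate acyltransferase gene, fell (23 ± 1.52 CPM with leptin against 31.7 ± 2.45 CPM in controls, edgeR adjusted p = 0.0356). With the GC trend removed, SLC27A1 still passed in edgeR, and each of the other 4 lists gave no call, with 2 to 5 genes at an unadjusted p under 0.05. Of the 6 calls in these lists, 6 were kept without leptin library 1, and 1, SLC27A1, was kept without leptin library 2 or control library 2. There were 0 kept without leptin library 3, control library 1 or control library 3, where 1.66%, 0.711% and 1.05% of all tested genes passed.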

How the data were processed

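Per the labels' protocols, total RNA went into a strand-preserving library kit and was read from both ends. The deposited values are raw counts of read pairs per gene. The authors counted pairs over exons of GENCODE 44 genes with featureCounts 2.0.1, without strand, multi-mapping or overlap options, per the file headers, so pairs shared by overlapping genes or near-identical copies were left out. Per the submitters' processing notes, the genome was hg38 and the tools included HISAT2 2.0.5, featureCounts 1.5.0-p3 and DESeq2. Trimming is not given in the sources used here.

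Totals were 15609425 to 18577775 counts, and all 62700 gene IDs matched a symbol. No column of per-sample values was left unused (0 others). Replicates were not the same library deposited again, so each library counted as 1 sample. Chi-square per gene between their counts was 5.3 to 5.61 in control pairs and 19.6 to 45.7 in leptin pairs. In R 4.3.3, edgeR 4.0.16 fitted all genes kept by filterByExpr (minimum count 10, total 15), with TMM scaling, robust quasi-likelihood tests with no block for replicate and Benjamini-Hochberg adjustment over 15685 genes at 0.05. SE values are those implied by the F statistic. CPM use TMM-scaled totals, TPM the deposited gene lengths, and the principal components a prior count of 2. The GC content of a gene was that of its longest annotated transcript, from an earlier GENCODE release than the counts. The GC trend of each library was removed with a lowess of span 0.3 entered as offsets. The common biological coefficient of variation was 0.15.

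Alternatives were DESeq2 1.42.0, limma-voom (limma 3.58.1), other scalings, filters and thresholds, a block for replicate number, and each library left out in turn. The fitting was tested on simulated data. Figures used Python 3.11.15 and matplotlib 3.10.9.

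Values in every library are given for called genes and for step-controlling genes named by rule, and from each further list up to 3 genes with the lowest adjusted p could be named. The members and lists were chosen with earlier results of these data known. Some results on further oxidation genes are not reported here.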

Additional observations from a re-analysis of the deposited data

How the results depend on the processing

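The 6 calls among the 43 tested genes (4 higher, 2 lower) were the same genes under DESeq2 size factors, TMM with singleton pairing, upper quartile scaling and a filter at a mean CPM of 1. DESeq2's test added 2 and no filter on low counts added 3. Scaling by library totals alone left 2 higher and 2 lower, and an adjusted p under 0.01 left 1 (0 higher, 1 lower; 13 genes had an unadjusted p under 0.05). Removing the GC trend left 3 (2 higher, 1 lower); with leptin replicate 1 also left out there were 16, of which 10 were lower, in a fit that called 25% of all tested genes, 12.2% as lower. Leaving out 1 library gave 0 to 21 calls, 0 to 9 higher and 0 to 12 lower, in fits that called 0.711 to 29.6% of all tested genes. Same-numbered libraries were not more alike in their deviations (correlations -0.049, 0.015 and -0.11) than differently numbered ones (-0.053 to 0.1). With 3 libraries a group, this check cannot exclude pairing. A replicate block gave 3 calls, 1 of them higher, without PLIN2 (edgeR adjusted p = 0.051), PNPLA2 (0.0722) and ECI1 (0.0509). With the GC trend removed as well it gave 2 (1 higher, 1 lower), FADS3 and FABP5. The cause of these differences was not tested.

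The called gene PNPLA2, at 0.41 with all 6 libraries, was at -0.01 with the GC trend removed and leptin replicate 1 left out. Genes without a call also changed sign, among them DGAT1 (0.23 with all 6 libraries), ACADVL (0.20) and ECHS1 (0.18). With the GC trend removed, alone, with the block or without leptin replicate 1, values were -0.36, -0.41 and -0.67 for FASN, -0.12, -0.15 and -0.36 for FADS2, 0.14, 0.14 and 0.10 for ACSL3, -0.10, -0.10 and -0.13 for DGAT1, and -0.05, -0.05 and -0.08 for ECHS1. ELOVL4 (0.01 and 0.00) and AGPAT1 (-0.02 in both) did so alone and with the block, and ACADVL (-0.04) and ACADM (0.08) without leptin replicate 1. With library totals alone FASN was -0.02, AGPAT1 -0.01 and HADHB -0.04, and HADHB lay at -0.01 or 0.00 in 4 other settings. Over the leave-outs the ranges were -0.15 to 0.13 for FASN, -0.5 to 0.14 for ACSS2, -0.19 to 0.17 for FADS2, -0.04 to 0.02 for ACSL3, -0.03 to 0.1 for GPAM, -0.03 to 0.08 for AGPAT1, -0.41 to 0.02 for LPIN1, -0.34 to 0.15 for DGAT2, -0.09 to 0.01 for MGLL, -0.39 to 0.03 for CPT2, -0.54 to 0.06 for SLC25A20 and -0.09 to 0.05 for HADHB. Low counts limit PLIN2, DGAT2, LIPE and CD36.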
